A study of Mus musculus with 8 samples.

Results

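The miR-23/27/24 family is encoded by a pair of paralogous clusters, called a and b, each of which gives 3 hairpins. The members described here are 7 arms that the array measures. They are mmu-miR-23a, mmu-miR-27a and mmu-miR-24-2* of the a cluster, mmu-miR-23b, mmu-miR-27b and mmu-miR-24-1* of the b cluster, and mmu-miR-24, which both clusters produce. The mouse prefix mmu is left out below. These arms were chosen by name among 567 mouse miRNAs on the array, with earlier results of these data known, and all 7 were detected on all 8 arrays. The samples were dendritic cells grown from C57BL/6 mouse bone marrow with GM-CSF at 40 ng/ml and collected as non-adherent cells on day 9. In 4 samples the cells had an overnight exposure to ODN1826, a class B CpG oligonucleotide sensed by the receptor TLR9, at 10 µM, and in 4 samples they had none, with medium or PBS named as the control. No sample had a control oligonucleotide, so effects through TLR9 and other effects of the oligonucleotide cannot be told apart. Replicates are numbered in the labels, which do not say whether each came from its own mouse or culture. The p-values therefore reflect only how far these samples varied, and that variation may be technical.

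A miRNA finds its target messages mainly through its seed, the bases 2 to 8 from its 5′ end, so arms with the same seed can share targets. Each hairpin can give a guide arm, which is loaded into the silencing complex, and a passenger arm, marked with a star, which is mostly degraded. In mouse blood formation the a cluster is a known target of the myeloid factor PU.1, and in mouse T cells miR-24 and miR-27 are known to restrain type 2 cytokine production. Because the guide miR-24 has 1 sequence whichever cluster makes it, its passenger arms are what tells the loci apart.

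The mature sequences of 6 of the 7 members were matched in RefSeq (GRCm38.p6); miR-23b was not matched. They are shown because the comparison of the clusters rests on arms that differ by few bases. The seed stands in capitals in these 4 guide arms.
miR-23a: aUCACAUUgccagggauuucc
miR-27a: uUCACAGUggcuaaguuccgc
miR-27b: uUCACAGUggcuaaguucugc
miR-24: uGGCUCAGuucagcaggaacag
The miR-27 arms share the seed UCACAGU, which differs from the miR-23a seed UCACAUU by 1 base, U7G, counted from 1 at the 5′ end of the miRNA. Between miR-27a and miR-27b 1 of 21 bases differed, C19U, outside the seed. The miR-24 sequence was identical at all 22 bases in the a and b hairpins. In the passenger arms, capitals mark the stretch in which they differ.
miR-24-2*: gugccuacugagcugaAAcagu
miR-24-1*: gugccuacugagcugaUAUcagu
These arms share their first 16 bases and their last 4, and so also the seed.

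In GRCm38.p6 the 3 hairpins of the a cluster lie within 404 bases on the plus strand of chromosome 8, Mir23a at chr8:84208518-84208592, Mir27a at chr8:84208672-84208758 and Mir24-2 at chr8:84208815-84208921, and no protein-coding gene of the annotation overlaps them. Those of the b cluster span 792 bases on chromosome 13, Mir23b at chr13:63300484-63300557, Mir27b at chr13:63300712-63300784 and Mir24-1 at chr13:63301208-63301275. They lie within the span of Aopep, which codes for an aminopeptidase. The array's own annotation (mm9) gives 2 probes for each member, with targets of 16 to 18 bases for the guide arms and for miR-24-2* and of 20 and 21 bases for miR-24-1*. The ends of those targets were 164 bases apart for miR-23a and miR-27a in mm9, the same as the distance between the 3′ ends of the mature arms in GRCm38, and 455 bases apart in both builds for miR-27b and miR-24-1*. How much of the signal on a probe comes from the paralogous arm was not tested.

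Each array gives an intensity per spot. Signals were averaged over the spots of a probe and over the probes of a miRNA, divided by a 75th percentile taken per array from the 177 miRNAs with detection on every array, and put on a log2 scale, where 0 is that percentile. The CpG arrays were brighter before this scaling, with the percentile at 157 to 280.5 intensity units on CpG arrays and 101.1 to 143.8 on untreated arrays, a 1.74-fold difference of geometric means. On 4 bright control features of the array, named hur, the difference was 1.19-fold. Of the miRNAs detected on at least 3 arrays of a group and tested with limma, 30 (14.2%) passed an adjusted p of 0.05, 16 (7.55%) higher and 14 (6.6%) lower with CpG. That split moved with the processing, to 88 higher and 0 lower without scaling, 67 higher and 2 lower on the hur features, and 4 higher and 139 lower with normexp background correction. The normexp setting added a constant to every spot before scaling, which weighs most on dim miRNAs, and the part of that constant in the calls was not tested. All 3 myeloid marker miRNAs listed (miR-223, miR-142-3p and miR-142-5p) were detected on all 8 arrays. None of the endothelial markers miR-126-3p and miR-126-5p, the 3 erythroid or the 4 stromal ones on the array was detected on any, while 3 of 5 epithelial markers and miR-181a of the 2 lymphoid ones were. The summed epithelial signal before scaling was 15.7 to 24.4 units on CpG arrays and 9.6 to 16.4 on untreated arrays. After scaling, the 3 detected epithelial markers were lower with CpG, by log2 differences of -0.59 (miR-200b), -0.17 (miR-200c) and -0.06 (miR-141). The part of epithelial signal in the results was not tested. Of a list of 12 miRNAs known to respond to Toll-like receptors, 11 were tested and 4 passed, all higher with CpG. Among these were miR-155 by 1.92 (SE 0.24, limma adjusted p = 0.00096) and miR-146a by 0.92 (SE 0.23, limma adjusted p = 0.0355) on the log2 scale. Of the 11, 6 had a lower scaled mean with CpG, and none of those passed.

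None of the 7 members passed the limma test for a difference between CpG and untreated cells, against 14.2% of all miRNAs tested. At an unadjusted p under 0.05 there were 2 of 7, miR-23a and miR-27a, both lower with CpG. Of all miRNAs tested, 40.1% reached that level and 26.4% reached it with a lower mean. After scaling 6 of 7 members had a lower mean with CpG, as did 64.6% of all miRNAs tested, and the median difference was -0.33 over the members and -0.19 over all miRNAs tested. The guides of the a cluster had the lowest log2 differences, -0.56 for miR-23a and -0.63 for miR-27a, while those of the b cluster were at -0.31 and -0.33, close to miR-24 at -0.35. The direction itself depended on the scaling. Without scaling all 7 members had a higher mean with CpG, as did 97.2% of all miRNAs tested.

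**Figure D1:**
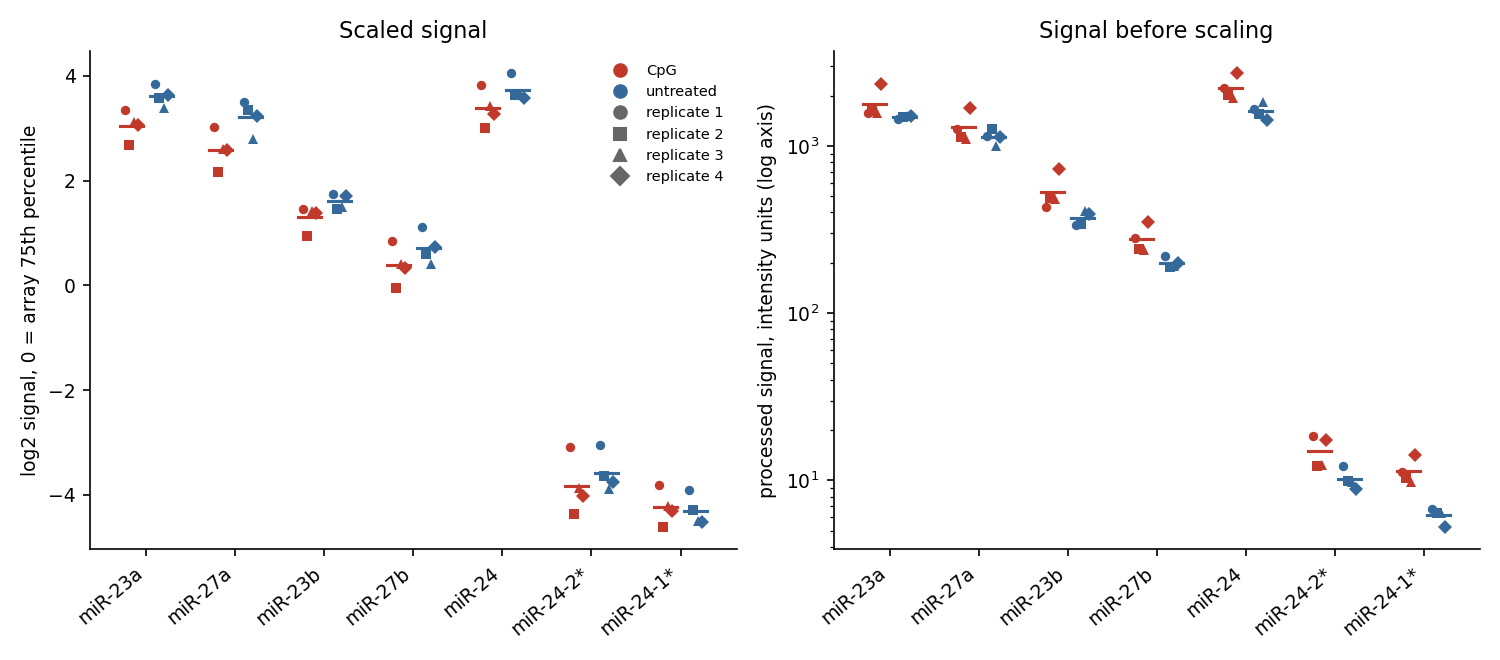
Signal of the 7 members on each array, with CpG left of untreated, marker shape giving the replicate number and a line giving the mean of 4 arrays. Left, log2 signal scaled to the array's 75th percentile, where miR-23a and miR-27a sit lower with CpG; right, processed signal before scaling in intensity units on a log axis, where all 7 members have the higher mean with CpG.

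miR-23a, a guide of the a cluster, had scaled log2 signals of 3.34, 2.68, 3.12 and 3.06 in CpG replicates 1 to 4 and of 3.84, 3.58, 3.39 and 3.64 in untreated replicates 1 to 4. All 4 CpG values lay below all 4 untreated values. The mean was 3.05 ± 0.27 in CpG cells and 3.61 ± 0.19 in untreated cells (SD, n = 4 each), which is -0.56 on the log2 scale (SE 0.17; adjusted p = 0.0566, limma). The signals before scaling were 1584, 1615, 1566 and 2335 units in CpG cells, against 1448, 1492, 1503 and 1500.4 in untreated cells, so that CpG replicate 4 stood apart there and the untreated samples were nearly equal. Without scaling it was 0.24 (SE 0.20; adjusted p = 0.302, limma). The limma call was close to its threshold, and miR-23a passed in 8 of 29 alternatives, always lower with CpG, among them the fit without CpG replicate 1 (-0.66, limma adjusted p = 0.0305).

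miR-27a, the second guide of the a cluster, known in mouse and human cells for repressing lipid and adipocyte genes, had scaled log2 signals of 3.02, 2.16, 2.60 and 2.58 in CpG cells, against 3.50, 3.35, 2.79 and 3.24 in untreated cells. CpG replicate 1 lay above untreated replicate 3, and the groups overlapped at these 2 samples. The means were 2.59 ± 0.35 with CpG and 3.22 ± 0.31 in untreated cells (SD, n = 4 each), so miR-27a differed by -0.63 (SE 0.22; adjusted p = 0.0764, limma). Before scaling its signals were 1271, 1126, 1095 and 1681 units in CpG cells and 1148, 1267, 993 and 1136 in untreated cells, and the groups overlapped there too. Without scaling it had the smallest difference of the 7 members, 0.17 (SE 0.21, limma adjusted p = 0.456). It passed, lower with CpG, with normexp background correction (-0.42, limma adjusted p = 0.026), without CpG replicate 1 (-0.77, limma adjusted p = 0.0305) and without untreated replicate 3 (-0.77, limma adjusted p = 0.0492).

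miR-23b, the b cluster counterpart of miR-23a, had scaled log2 signals of 1.46, 0.94, 1.42 and 1.37 in CpG cells, against 1.74, 1.46, 1.50 and 1.71 in untreated cells. The groups were apart only at the third decimal, with a highest CpG value of 1.457 and a lowest untreated value of 1.461, and CpG replicate 2 was low. Its mean was 1.30 ± 0.24 with CpG and 1.60 ± 0.14 in untreated cells (SD, n = 4 each), or -0.31 on the log2 scale (SE 0.16; adjusted p = 0.164, limma), and -0.19 without CpG replicate 2. Before scaling it was at 430.0, 485, 482 and 726 units in CpG cells and 338, 342, 407 and 394 in untreated cells, with all CpG samples above all untreated ones. miR-23a and miR-23b were the 2 of 7 members whose scaled values were lower with CpG without overlap, against 19.8% of all miRNAs tested.

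miR-27b, which shares its seed with miR-27a, was at 0.85, -0.05, 0.41 and 0.33 on the scaled log2 scale in CpG cells and at 1.11, 0.60, 0.40 and 0.73 in untreated cells. The groups overlapped, with CpG replicate 1 above 3 of the untreated samples. The mean was 0.38 ± 0.37 with CpG and 0.71 ± 0.30 in untreated cells (SD, n = 4 each), or -0.33 on the log2 scale (SE 0.22; adjusted p = 0.265, limma). It was -0.18 without CpG replicate 2 and -0.20 without untreated replicate 1. Before scaling it was at 283, 243, 239 and 352 units in CpG cells, against 219, 189, 190.2 and 199 in untreated cells, and did not overlap there. In unscaled log2 terms the b cluster guides differed by 0.49 (miR-23b, limma adjusted p = 0.0825) and 0.47 (miR-27b, limma adjusted p = 0.0783), against 0.17 for miR-27a. Before scaling 6 of 7 members, all but miR-27a, were higher with CpG without overlap, against 39.6% of all miRNAs tested. For miR-24-2* the margin was very narrow, with CpG replicate 2 at 12.190 units and untreated replicate 1 at 12.184.

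miR-24, the guide that both clusters produce, was at 3.83, 2.99, 3.42 and 3.28 in CpG cells and at 4.05, 3.64, 3.66 and 3.57 in untreated cells on the scaled log2 scale. The groups overlapped through CpG replicate 1. Its mean of 3.38 ± 0.35 with CpG and 3.73 ± 0.22 in untreated cells (SD, n = 4 each) differed by -0.35 (SE 0.20; adjusted p = 0.199, limma), and by -0.22 without CpG replicate 2. The unscaled signals were 2231, 2008, 1924 and 2715 units in CpG cells, against 1671, 1547, 1820.0 and 1427 in untreated cells, all higher with CpG, by 0.45 on the log2 scale (SE 0.20; adjusted p = 0.0825, limma).

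The passenger arms were dim. miR-24-2*, from the a cluster, had 18.4, 12.2, 12.4 and 17.3 units before scaling in CpG cells, against 12.2, 9.94, 9.75 and 8.93 in untreated cells. Its scaled log2 mean was -3.84 ± 0.54 with CpG and -3.58 ± 0.37 in untreated cells (SD, n = 4 each), which differ by -0.25 (SE 0.28; adjusted p = 0.49, limma), and replicate 1 was the highest sample of both groups. It was -0.50 without CpG replicate 1, -0.074 without CpG replicate 2 and -0.075 without untreated replicate 1. miR-24-1*, from the b cluster, had 11.2, 10.3, 9.73 and 14.1 units in CpG cells, against 6.74, 6.36, 6.37 and 5.28 in untreated cells. All CpG samples were above all untreated ones before scaling, while the scaled means were -4.24 ± 0.33 with CpG and -4.30 ± 0.28 in untreated cells (SD, n = 4 each), which differ by 0.06 (SE 0.21; adjusted p = 0.82, limma) and turned to -0.077 without CpG replicate 1. It was the 1 of 7 members called without scaling, by 0.86 on the log2 scale (SE 0.20; adjusted p = 0.0126, limma), where 41.5% of all miRNAs tested were called higher. Both passenger arms were called by the detection flag on every array, but 1 of the 2 probes of miR-24-1* had no spot well above background on 7 of 8 arrays, which limits the precision of its level. The array also holds the other arms of the miR-27 hairpins. miR-27a* and miR-27b* were detected on 0 arrays, with signals of -1.76 to -0.23 and -2.05 to -0.70 units after background subtraction.

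**Figure D2:**
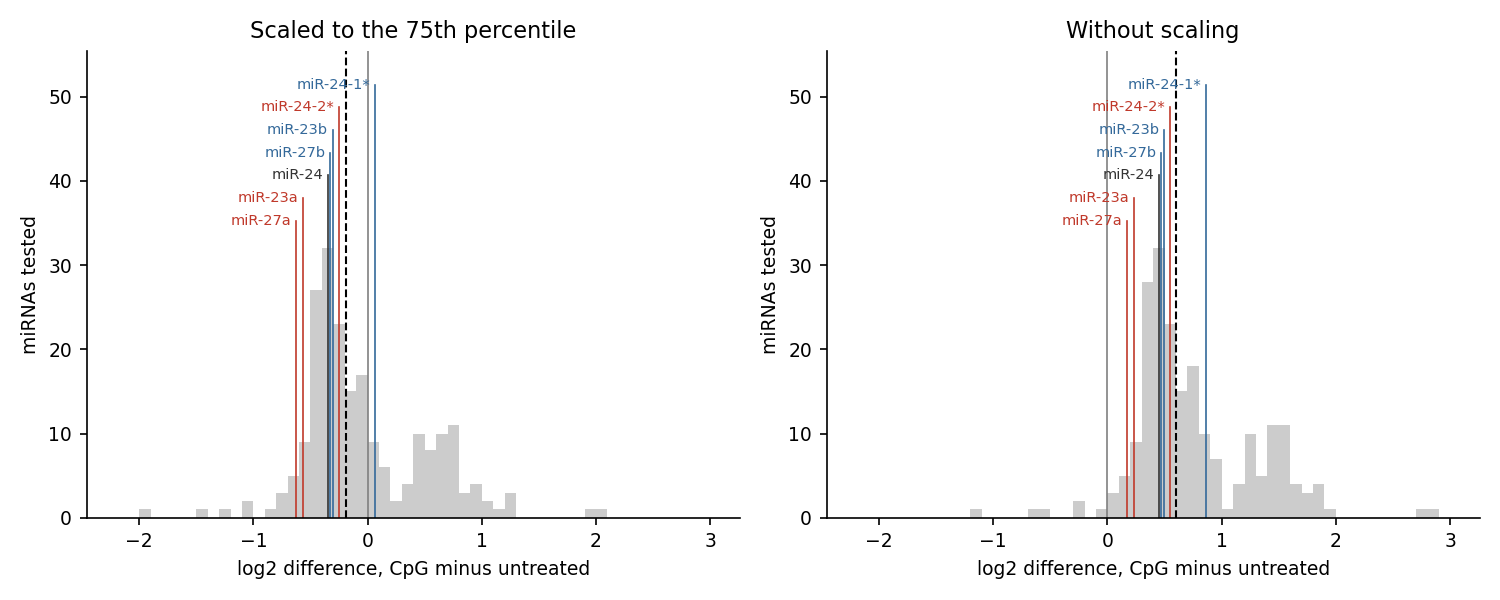
Histograms of the log2 difference, CpG minus untreated, for all miRNAs tested, with the 7 members as labelled vertical lines (a cluster red, b cluster blue, miR-24 black) and the median of all miRNAs dashed. After scaling miR-27a and miR-23a lie at -0.63 and -0.56, left of the median of -0.19, and without scaling all 7 lie above 0, with a median of 0.60 over all miRNAs.

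The ratio of an a cluster arm to its b cluster counterpart within an array does not change when all signals of that array are multiplied by 1 factor. The level of such a ratio reflects the probes as well as the RNA, so only its difference between the groups is compared. For both guide pairs the ratio was lower with CpG. The log2 ratio of miR-23a to miR-23b was 1.88, 1.74, 1.70 and 1.69 in CpG replicates 1 to 4, against 2.10, 2.12, 1.88 and 1.93 in untreated replicates 1 to 4. The groups were apart, though narrowly, with CpG replicate 1 at 1.881 and untreated replicate 3 at 1.884. The ratio averaged 1.75 ± 0.09 with CpG and 2.01 ± 0.12 in untreated cells (SD, n = 4 each), a difference of -0.26 (SE 0.07), or 16.4% lower. The exact two-sided permutation p was 0.0286, the smallest that the 70 arrangements of 4 and 4 arrays allow, and 0.0429 adjusted by Benjamini-Hochberg over the 3 pairs compared. That test takes the samples as unpaired. With samples paired by replicate number, the exact p of this ratio was 0.125, as it was for the other ratios, the smallest that 4 pairs of samples allow.

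The log2 ratio of miR-27a to miR-27b was 2.17, 2.21, 2.20 and 2.25 in CpG cells and 2.39, 2.74, 2.38 and 2.51 in untreated cells. The CpG samples lay close together and below all untreated ones. The means were 2.21 ± 0.04 with CpG and 2.51 ± 0.17 in untreated cells (SD, n = 4 each), a difference of -0.30 (SE 0.09), or 18.7% lower, with the same exact permutation p of 0.0286 (0.0429 adjusted over the 3 pairs). The passenger arms, which tell the miR-24 loci apart, differed the same way without passing. The log2 ratio of miR-24-2* to miR-24-1* was 0.72, 0.24, 0.35 and 0.30 in CpG cells, against 0.85, 0.65, 0.61 and 0.76 in untreated cells. CpG replicate 1 lay among the untreated samples. The means were 0.40 ± 0.22 with CpG and 0.72 ± 0.11 in untreated cells (SD, n = 4 each), a difference of -0.32 (SE 0.12, exact permutation p = 0.0857, also 0.0857 adjusted over the 3 pairs). This ratio rests on dim signals, with 1 probe of miR-24-1* near background on most arrays. With normexp, where the added constant weighs most on dim arms, its difference was -0.03 (adjusted exact permutation p = 0.543). Without the CpG arrays of replicates 2 and 4 the difference was -0.18.

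**Figure D3:**
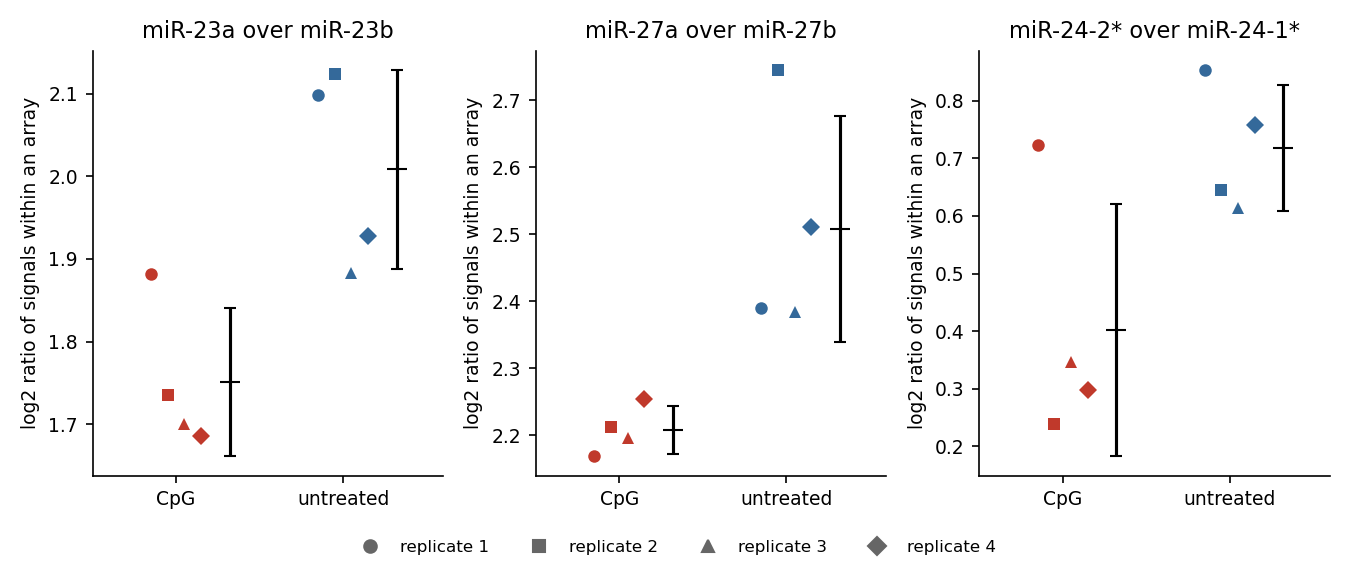
Log2 ratio of the a cluster arm to the b cluster arm on each array for the 3 pairs, CpG left of untreated, with marker shape giving the replicate number and the bar giving the mean ± SD of 4 arrays; the vertical axes do not start at 0. The CpG samples lie below all untreated ones for miR-23a over miR-23b and miR-27a over miR-27b, and CpG replicate 1, at 0.72, overlaps the untreated samples for miR-24-2* over miR-24-1*.

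The groups were thus apart in 2 of the 3 pairs. Over all 15576 pairs that can be formed from the 177 miRNAs detected on every array, 18.3% were apart in either direction, and 57.1% had a difference at least as large as that of miR-27a over miR-27b and 61.4% one at least as large as that of miR-23a over miR-23b. The size of the difference is therefore common on these arrays. A list of 15 other pairs of closely related guides gave 11 in which both members were tested. Their differences in log2 ratio ran from -0.72 (miR-221 over miR-222) to 0.99 (miR-146a over miR-146b), with 5 below 0 and 6 above, and in 0 of the 11 were the groups apart. The median size was 0.24, and 3 of 11 were larger in size than that of the miR-27 pair.

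The single probes gave the same direction. All 4 combinations of an a probe with a b probe had a lower ratio with CpG for miR-23, by log2 differences of -0.31 to -0.21, and likewise all 4 for miR-27, at -0.35 to -0.29. The groups were apart in 2 of 4 and 3 of 4 combinations. Within the 2 rows of the slide, each with 2 CpG and 2 untreated arrays, the difference was -0.23 and -0.29 for the miR-23 pair, -0.24 and -0.36 for the miR-27 pair and -0.30 and -0.34 for the passenger pair. Array brightness differed between the groups, and its part in the ratios was not tested. The brightest CpG array, replicate 4, had the lowest CpG value of the miR-23 ratio and the highest of the miR-27 ratio. The dimmest CpG array, replicate 1, had the highest CpG value of the miR-23 ratio and the lowest of the miR-27 ratio. The brightest untreated array, replicate 3, had the lowest untreated value of all 3 ratios. The dimmest untreated array, replicate 1, had the highest passenger ratio and neither extreme of the guide ratios. In both groups the miR-23 ratio was thus lowest on the brightest array. With quantile normalization the miR-23 pair was at -0.30 (adjusted exact p = 0.129) and the miR-27 pair at -0.15 (adjusted exact p = 0.429). With normexp both were at -0.21 (adjusted exact p = 0.0857 for each), and with the brightest probe alone the miR-23 pair was at -0.25 (adjusted exact p = 0.0571). The median over all spots of a miRNA turned both, to 0.12 and 0.045 (adjusted exact p = 1 for each). With 1 array left out no pair can reach an exact p under 0.05, and the differences then stayed between -0.30 and -0.22 for miR-23 and between -0.34 and -0.22 for miR-27.

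Within a cluster the guides kept nearly the same ratio in both groups. The log2 ratio of miR-27a to miR-23a was -0.46 ± 0.10 in CpG cells and -0.39 ± 0.15 in untreated cells, and that of miR-27b to miR-23b was -0.91 ± 0.21 with CpG and -0.89 ± 0.20 in untreated cells (SD, n = 4 each). Both were described without a test and overlapped between the groups. miR-24 kept its ratio to the b guides, with differences of -0.04 against miR-23b and -0.02 against miR-27b, whereas against the a guides they were 0.22 (miR-23a) and 0.28 (miR-27a), the groups overlapping in all 4. The ratios of the dim passenger arms to the miR-23 guide of their cluster differed more between the groups, also without a test. For miR-24-2* over miR-23a the difference was 0.31, with SDs of 0.31 in CpG cells and 0.21 in untreated cells. For miR-24-1* over miR-23b it was 0.37, with SDs of 0.19 and 0.26, and the groups overlapped in both. For miR-24 over miR-24-2* it was -0.10, with overlap. For miR-24 over miR-24-1* it was -0.41 with the groups apart, as in 18.3% of all pairs of miRNAs.

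Likeness between miRNAs was measured as the root-mean-square difference of scaled log2 profiles over the 8 arrays, each centred on its own mean, so that smaller values mean more alike. All miRNAs share the arrays and their scaling. Among the members, miR-23a was closest to miR-27a (0.115) and miR-24 to miR-27b (0.114), while miR-23a and miR-23b were 0.16 apart and miR-27a and miR-27b 0.18. The members did not group by cluster throughout. The member nearest to miR-23b was miR-23a of the other cluster (0.158), ahead of miR-24 (0.173) and of miR-27b from its own cluster (0.177). miR-23a was as near to miR-27b (0.157) as to miR-23b. Outside the family, 170 miRNAs detected on every array were compared. miR-23a was most like miR-324-5p (0.085), miR-185 (0.097) and miR-30a (0.11), against a median of 0.30 over all candidates. miR-27a was most like miR-30a (0.11), miR-324-5p (0.15) and miR-326 (0.16). miR-24 was most like miR-152 (0.059), miR-181a (0.10) and miR-720 (0.11). The nearest to miR-23b were miR-30b (0.056), miR-103 (0.082) and miR-140 (0.085), and those to miR-27b were miR-29c (0.078), miR-720 (0.10) and miR-152 (0.10). The a guides thus shared miR-30a and miR-324-5p among their nearest profiles, and miR-24 and miR-27b shared miR-152 and miR-720.

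The scaling of the arrays set the sign of the members' differences. Where it multiplies each array by 1 factor, the gap between an a guide and its b counterpart is fixed by construction, so of the settings plotted only quantile normalization and cyclic loess could change it. With the 75th percentile or the median as the scale, all 5 guides were below 0, at -0.64 to -0.25. With median-of-ratios scaling miR-23a and miR-27a were at -0.32 and -0.38 and the other guides at -0.10 to -0.06, with a median of 0.05 over all miRNAs tested. On the hur control features, where that median was 0.35, the a guides were at -0.02 and -0.08 and the b guides at 0.24 and 0.22. Relative to the median of all miRNAs, miR-23a lay at -0.37 and miR-27a at -0.44 after 75th percentile scaling and at -0.36 and -0.43 without scaling, against -0.11 for both miR-23b values and -0.14 and -0.13 for miR-27b.

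**Figure D4:**
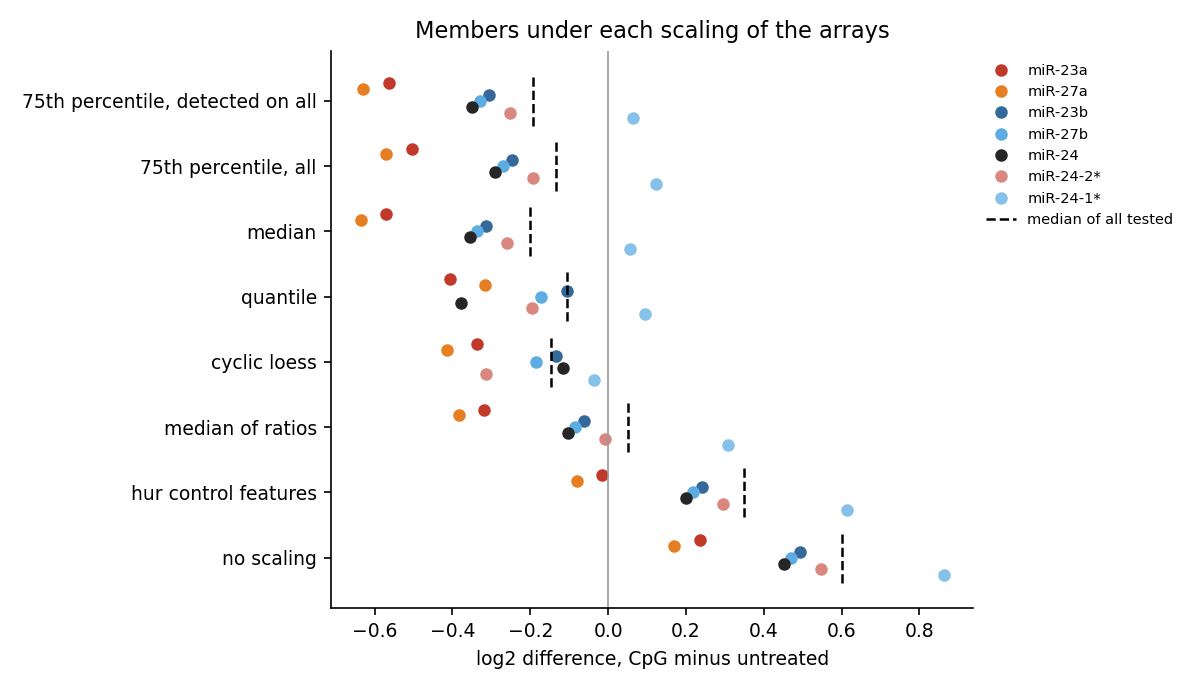
Log2 difference, CpG minus untreated, of the 7 members under 8 ways of scaling the arrays, 1 row each, with the median of all miRNAs tested as a dashed line. All members lie right of 0 without scaling, and the spacing between members can differ between rows only for quantile and cyclic loess, since the other scalings shift all members together.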

How the data were processed

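Total RNA of 4 CpG and 4 untreated samples was labelled with Cy3 and hybridised to the 8 arrays of 1 mouse miRNA slide. Per the file headers, the authors' scanner output came from Agilent Feature Extraction 9.5.3.1 with an mm9 annotation, and its processed signal is an intensity after background subtraction and spatial detrending, not scaled between arrays. A detection flag and a summed gene signal, likewise an intensity, were deposited for each miRNA and array. In the authors' table of 260 miRNAs, the 56 member intensities equalled that summed signal within 0.1%. The submitters' processing notes name limma but no version of it.

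Spots with outlier flags were left out. Values below a floor of 0.0107 of the 75th percentile were set to it. A miRNA was tested if detected on at least 3 of 4 arrays of a group. CpG and untreated arrays were compared by limma 3.58.1 under R 4.3.3 (two-sided, Benjamini-Hochberg over 212 miRNAs, threshold 0.05). Ratios were compared by exact two-sided permutation with SciPy 1.17.1. Figures were made with matplotlib 3.10.9 (Python 3.11.15). The limma step was first tested on simulated data.

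The members, lists and alternatives were chosen with earlier results of these data known. Named beside the members were the other arms of their hairpins, the 3 most like miRNAs of each guide, 2 of the Toll-like receptor list, the cell type markers, and the extremes of the other paralogous pairs. The array does not hold miR-199a-3p under that name. No member spot was saturated (0 spots). With 4 arrays a group, array number sets how precise each value can be.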

Additional observations from a re-analysis of the deposited data

Results flagged for a closer look

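In 20 groups of 4 arrays, the 7 members and the 3 ratios in both treatments, 1 had a sample standing apart from its group, and about 1 in 20 is flagged by chance. It was miR-23b in the CpG group, at a scaled log2 signal of 0.94 on replicate 2 against a mean of 1.42 on the other 3 arrays. Without that array the log2 difference of miR-23b was -0.19 and that of miR-23a over miR-23b was -0.25.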

How the results depend on the processing

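The direction of the members depended on the scaling. Without scaling, 6 turned positive, at 0.24 (miR-23a), 0.17 (miR-27a), 0.45 (miR-24), 0.49 (miR-23b), 0.47 (miR-27b) and 0.55 (miR-24-2*), and in the authors' table without scaling they were at 0.23, 0.17, 0.45, 0.49, 0.47 and 0.55 in that order. On the hur control features miR-24 was at 0.20, miR-23b at 0.24, miR-27b at 0.22 and miR-24-2* at 0.30, and miR-24-2* was at 0.11 without the CpG arrays of replicates 2 and 4. miR-24-1* turned to -0.035 with cyclic loess, to -0.28 with normexp, and to as low as -0.077 with 1 array left out. Among 203 values of members under 29 alternatives, 166 kept sign and side of the threshold, 22 changed sign and 16 newly passed, 1 of them with a changed sign.

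The members called numbered 0 as reported, 1 without scaling, in the authors' table and on the hur features (miR-24-1* each time), 4 with normexp (miR-23a, miR-27a, miR-24-1* and miR-24-2*), and 1 (miR-23a each time) with only miRNAs detected on all 8 arrays, a floor 2 times higher, trend and robust fitting, the median over the spots of each probe, the slide row as a block and the replicate block. The constant added with normexp weighs most on the dim passenger arms, and its part in their calls was not tested. The range was 0 to 2 with 1 array left out. The count over all miRNAs was 30 as reported, 88 without scaling, 87 in the authors' table, 69 on the hur features, 143 with normexp, 48 with the higher floor, 19 with quantile, 18 with median scaling, 16 with the brightest probe, 3 with no filter, 2 with the median over spots, 4 without CpG replicates 2 and 4 and 5 to 68 with 1 array left out.

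For the ratios, quantile normalization gave -0.30 (miR-23) and -0.15 (miR-27), normexp -0.21 and -0.21, and the brightest probe -0.25 for miR-23, none past the threshold, and -0.38 for the passenger pair, which then passed (adjusted exact p = 0.0429). The passenger pair was at -0.03 with normexp (adjusted exact p = 0.543) and at -0.18 without the CpG arrays of replicates 2 and 4. The median over all spots of a miRNA turned both guide pairs, to 0.12 and 0.045. That median falls between the levels of 2 probes that differ several-fold, and with the median taken per probe, an alternative chosen after seeing the data, the ratios were at -0.28 and -0.32. With 1 array left out they ran from -0.30 to -0.22 (miR-23), -0.34 to -0.22 (miR-27) and -0.42 to -0.26 (passenger arms).

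Same-numbered samples deviated together with correlations of 0.28, -0.26, 0.25 and 0.10, and 1 of 4 CpG samples correlated best with its own number. Same-numbered samples lay side by side in the same slide row. Correlations over so few samples cannot decide whether the numbers pair them. With the replicate block 38 miRNAs passed in place of 30, and the paired exact p of each ratio was 0.125, the smallest that 4 pairs allow. Signal over background limits miR-24-1* and miR-24-2*.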
